A study of Mus musculus with 4 samples.

Results

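The genes described here are 36 transcripts that mark neutrophils, chosen by name and with earlier results of these data known. They were taken from the count tables of CD8 T cells sorted from mouse tumours. Of the 36, 35 were listed among the 14082 genes of the tables, and all 35 passed the filter on low counts. Stfa2 was not listed and was dropped. They were split by role into 8 early granule genes (Ngp, Ltf, Camp, Lcn2, Cd177, Pglyrp1, Mmp8 and Chil1), whose proteins are stored in the specific granules that form in bone marrow precursors, and 27 genes of mature and activated neutrophils.

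Ovalbumin-specific CD8 T cells were sorted from E.G7 tumours, a mouse T lymphoma line that expresses ovalbumin, grown under the skin of mice 6 to 10 weeks old at injection. Hosts were Smad4-fl/fl in both groups, without Cre for the 2 libraries labelled WT and with Cd8-cre for the 2 labelled KO. Cre driven by Cd8 sequence, as the name gives it, is aimed at the CD8 lineage and not at neutrophils. How many animals gave each library, and whether the libraries of a group come from different animals, is not in the labels. The p-values therefore reflect only how far these samples differ, which may be technical.

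Neutrophils are short-lived phagocytes that leave the bone marrow with their granules already filled. Granule proteins are made in order, those of the azurophil granules in the earliest precursors, those of the specific granules next and those of the gelatinase granules later, and their transcripts decline as the cell matures. Transcripts for chemokine and cytokine receptors, for the calgranulins S100A8 and S100A9 and for inflammatory regulators are carried by mature cells in blood and inflamed tissue, tumours included. Several of these genes are not unique to neutrophils: monocytes, macrophages and epidermal cells also use some of them.

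Summed counts ran from 24366540 to 26218277 per library. Smad4 itself had 752 and 736 counts under the label WT and 779 and 1088 under the label KO, so the gene-level count did not mark the deletion and every direction below is between libraries as labelled. Of the 13358 genes tested, 10.1% rose and 11.0% fell from the libraries labelled WT to those labelled KO (edgeR quasi-likelihood, Benjamini-Hochberg adjusted p under 0.05). Scaling to library totals alone changed that split from 1354 higher and 1472 lower to 2105 and 1013.

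Transcripts of the 35 genes were a small part of every library and a larger part of those labelled KO. In WT replicate 1, Wfdc17 and Ccrl2, which macrophages also express, held 14243 and 13190 of the 74218 counts of the set. The share is therefore that of the gene list and not a measure of neutrophil content. The 35 genes together took 0.305% and 0.311% of all counts under the label WT and 0.603% and 0.606% under the label KO. S100a8 and S100a9 alone made up 8.40% and 8.37% of the neutrophil-gene counts in WT and 19.0% and 19.0% in KO. The early granule genes made up 4.57% and 4.74% in WT and 3.98% and 3.20% in KO. Of the early granule counts, Pglyrp1 held 1930 of 3394 and 1970 of 3804 in WT and 1300 of 6198 and 1374 of 5093 in KO. Of these 8 genes, only Pglyrp1 was called lower, and the fall in their share rests on that gene. Without Pglyrp1, the counts given here leave no fall in the share. In bulk RNA, more cells of a type and more RNA per cell cannot be told apart.

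Of the 35 genes, 27 were higher in the libraries labelled KO, 2 were lower (Pglyrp1 and Ifitm6) and 6 did not pass (Ngp, Camp, Ltf, Cd177, Fpr2 and Wfdc17), against 10.1% of all tested genes higher and 11.0% lower. Of the 27 rises, 19 were over 2-fold, a size that 2.01% of all tested genes reached as a called rise. The list was chosen with earlier results of these data known, so an excess over these shares is no test of it. Both KO libraries lay above both WT libraries for 31 genes, a separation that 29.7% of tested genes showed, below them for 2 genes (30.0% of tested genes), and the groups overlapped for Ltf and Cd177. The median log2 fold change was 1.41 over the early granule genes and 1.16 over the mature and activated genes, beside -0.0037 over all tested genes. Without KO replicate 1 the early granule median was 0.91, below the mature median of 1.15 in that fit. Of the mature and activated genes, 24 of 27 rose and 1 fell, while 3 of 8 early granule genes rose and 1 fell. That difference between the classes was not tested. Over a narrower early list of 5 genes (Ngp, Ltf, Camp, Lcn2 and Cd177), 1 rose, 0 fell and the median was 1.61.

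**Figure D1:**
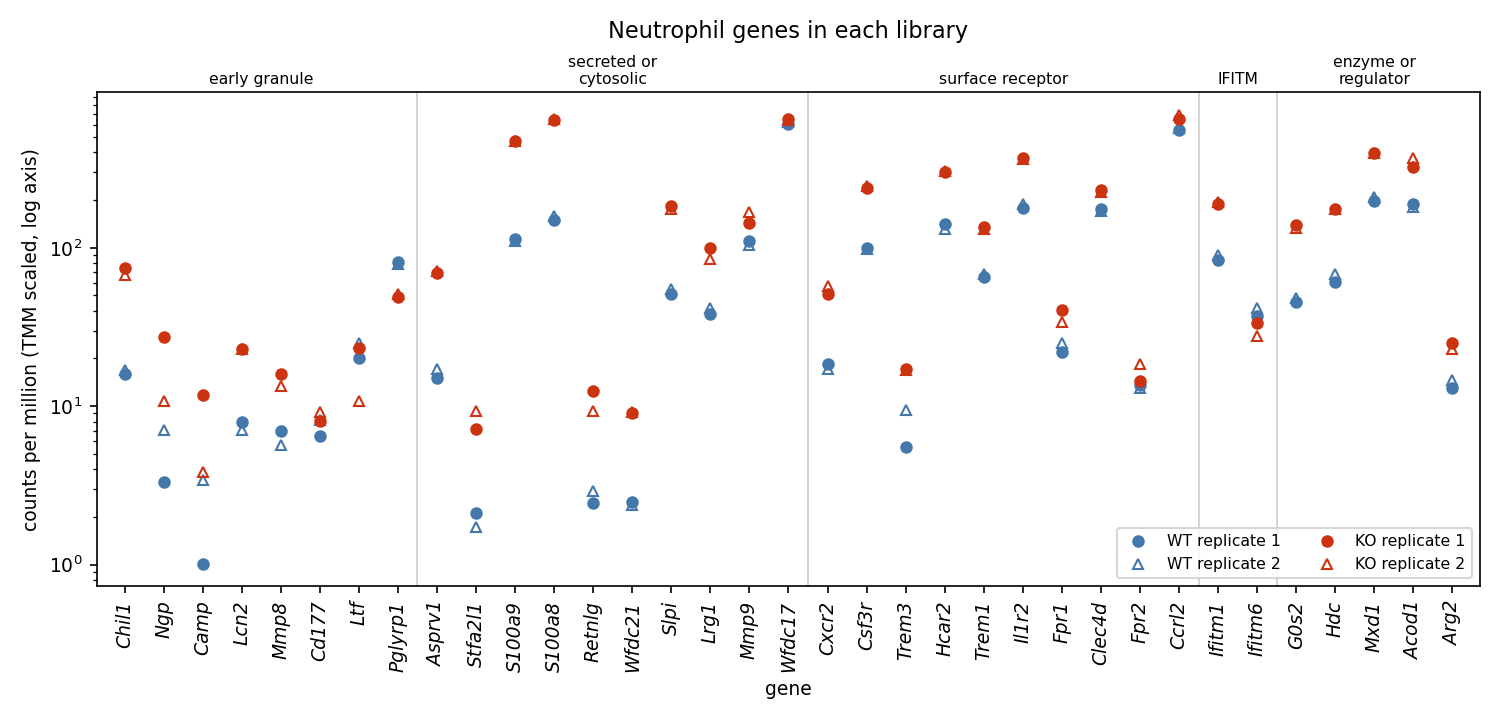
Counts scaled to library size with TMM factors (CPM, log axis) of the 35 neutrophil genes in each library, grouped by role and ordered within a role by fold change. Blue marks the 2 libraries labelled WT and red the 2 labelled KO, with filled circles for replicate 1 and open triangles for replicate 2. Most genes show 2 tight, separate pairs, whereas the libraries of a group lie apart for Ngp, Camp and Ltf.

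The regulatory sequence at the start of 4 of these genes is shown because the genes stand for 2 different patterns. S100a8 and S100a9 rose by the same amount in near-identical replicates, while Ngp and Camp differed widely between libraries of a group. The windows run from 250 bases before to 50 bases after the RefSeq start (GRCm38.p6), 5′ to 3′ on the gene's strand. Capitals mark every match, on either strand, to TTNNGNAA, a short form of the site bound by C/EBP factors, which drive granulocyte genes.
S100a8, chr3:90668821-90669120, plus strand: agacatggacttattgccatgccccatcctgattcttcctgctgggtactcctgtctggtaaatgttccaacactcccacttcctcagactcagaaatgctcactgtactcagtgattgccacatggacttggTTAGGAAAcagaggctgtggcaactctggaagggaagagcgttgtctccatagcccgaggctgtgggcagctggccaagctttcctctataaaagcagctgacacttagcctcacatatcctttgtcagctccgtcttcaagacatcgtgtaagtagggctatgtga
S100a9, chr3:90695672-90695971, minus strand: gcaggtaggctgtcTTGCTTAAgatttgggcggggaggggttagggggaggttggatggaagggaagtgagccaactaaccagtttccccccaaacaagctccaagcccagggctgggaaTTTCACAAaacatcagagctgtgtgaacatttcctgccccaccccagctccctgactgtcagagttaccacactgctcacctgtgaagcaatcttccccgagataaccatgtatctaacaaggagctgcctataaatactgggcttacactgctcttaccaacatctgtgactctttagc
Ngp, chr9:110419558-110419857, plus strand: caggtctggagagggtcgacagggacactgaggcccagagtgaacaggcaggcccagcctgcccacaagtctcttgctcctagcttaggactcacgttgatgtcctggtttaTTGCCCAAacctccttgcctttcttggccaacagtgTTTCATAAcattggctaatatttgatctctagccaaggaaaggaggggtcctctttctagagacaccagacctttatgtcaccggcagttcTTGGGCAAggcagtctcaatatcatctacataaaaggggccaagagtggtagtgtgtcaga
Camp, chr9:109849407-109849706, minus strand: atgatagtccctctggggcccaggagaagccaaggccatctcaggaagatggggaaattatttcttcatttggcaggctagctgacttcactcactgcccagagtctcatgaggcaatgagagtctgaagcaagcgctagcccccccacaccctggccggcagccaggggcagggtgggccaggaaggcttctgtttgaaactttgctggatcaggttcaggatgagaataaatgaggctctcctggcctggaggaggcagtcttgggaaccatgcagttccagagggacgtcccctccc
The S100a8 window held 1 match, that of S100a9 2, that of Ngp 3 and that of Camp 0. RefSeq windows were found for 31 of the 36 genes, 33 windows in all, and 19 of them (57.6%) held a match, beside 40.7% of 32851 windows of the same length. The letters GAGGAAGT, a form of the site of the myeloid factor PU.1, were found on either strand in 2 of the 33 windows (6.06%, those of S100a8 and Mmp8), beside 3.20% of all windows. A match describes letters in these windows and shows no binding.

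The calgranulin genes, whose products form the calcium-binding and zinc-binding complex calprotectin of the neutrophil cytosol, had the lowest adjusted p-values of the set. S100a8 had 3526 and 3955 counts in WT and 17047 and 17467 in KO. S100a9 had 2710 and 2763 counts in WT and 12539 and 12763 in KO. The lowest KO count was over 4 times the highest WT count for both genes, and the libraries of a group lay close together. S100a8 rose by 2.07 on the log2 scale (SE 0.057) and S100a9 by 2.07 (SE 0.056), with an adjusted p of 2.04e-10 each (edgeR quasi-likelihood). The genes neighbour each other on chromosome 3 (mm10), S100a8 at 90668978 to 90670035 on the plus strand and S100a9 at 90692632 to 90695721 on the minus strand, with a gap of 22.6 kb and no protein-coding gene between them. The ratio of S100a8 to S100a9 counts was 1.30 and 1.43 in WT and 1.36 and 1.37 in KO. By length-scaled level, S100a8 stood at 213 ± 9.71 FPKM (SD, n = 2) in WT and 899 ± 4.31 in KO, which moved it from rank 229 to rank 38 among all listed genes.

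Other secreted or cytosolic proteins of mature neutrophils rose by similar amounts, with 3 exceptions. Of the 10 genes in this group, 9 rose (beside 10.1% of all tested genes) and Wfdc17 did not pass. Their median log2 fold change was 1.96. Asprv1, an aspartic protease gene, had 359 and 428 counts in WT and 1842 and 1924 in KO (log2 fold change 2.12, SE 0.10). Slpi, which encodes an inhibitor of neutrophil elastase, had 1207 and 1366 counts in WT and 4849 and 4749 in KO (log2 fold change 1.76, SE 0.069). Every KO library was well above every WT library for both. Retnlg, a resistin-like secreted protein gene, had 58 and 73 counts in WT and 330 and 250 in KO. The whey acidic protein family gene Wfdc21 had 59 and 59 counts in WT and 240 and 247 in KO. Stfa2l1, a stefin that inhibits cysteine proteases, had 50 and 43 counts in WT and 190 and 251 in KO. These 3 genes rest on few counts in WT, and their log2 fold changes of 2.01, 1.90 and 2.10 carried errors of 0.24 to 0.28. In GENCODE M21, 24.6% of the 50-base stretches of Stfa2l1 transcripts also occur in Stfa2 or a related gene, so the Stfa2l1 value is uncertain.

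The remaining genes of this group were the 3 that stood lower. Lrg1, a leucine-rich glycoprotein of the granules, rose by 1.21 (SE 0.095), from 39.8 ± 2.48 to 92.3 ± 10.6 CPM (SD, n = 2 each). Mmp9, the matrix-degrading enzyme that names the gelatinase granules, had 2610 and 2590 counts in WT and 3837 and 4567 in KO and rose by only 0.55 (SE 0.079). Wfdc17 was the highest of all 35 genes by length-scaled level, at 1102 ± 25.6 FPKM in WT and 1174 ± 8.14 in KO (SD, n = 2 each). Its counts of 14243 and 15478 in WT and 17245 and 17379 in KO gave a log2 fold change of 0.08 with a 95% confidence interval of -0.03 to 0.19, and it did not pass (edgeR adjusted p = 0.291). With library totals alone as the scaling it passed at 0.17 (edgeR adjusted p = 0.0293). Wfdc17 lies 40.67 kb from Wfdc21 on chromosome 11, with 1 protein-coding gene between them, and the confidence interval of Wfdc21, 1.38 to 2.43, lay wholly above its own. Wfdc17 is also known from macrophages.

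Markers of another tissue known to use several of these genes were looked at beside them. Slpi, Asprv1, the stefins, Mmp9 and the calgranulins are also expressed by keratinocytes, as Lcn2 is. Of 6 keratinocyte markers, Krt5, Krt1 and Dsp were not listed, Krt14 had 0 and 0 counts in WT and 4 and 24 in KO, and Krt10 had 14, 54, 25 and 47. Only Perp, a gene of wider use, was abundant, at 279 CPM in WT and 427 in KO. Without the members that keratinocytes share, the median of the mature and activated genes was 1.00.

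**Figure D2:**
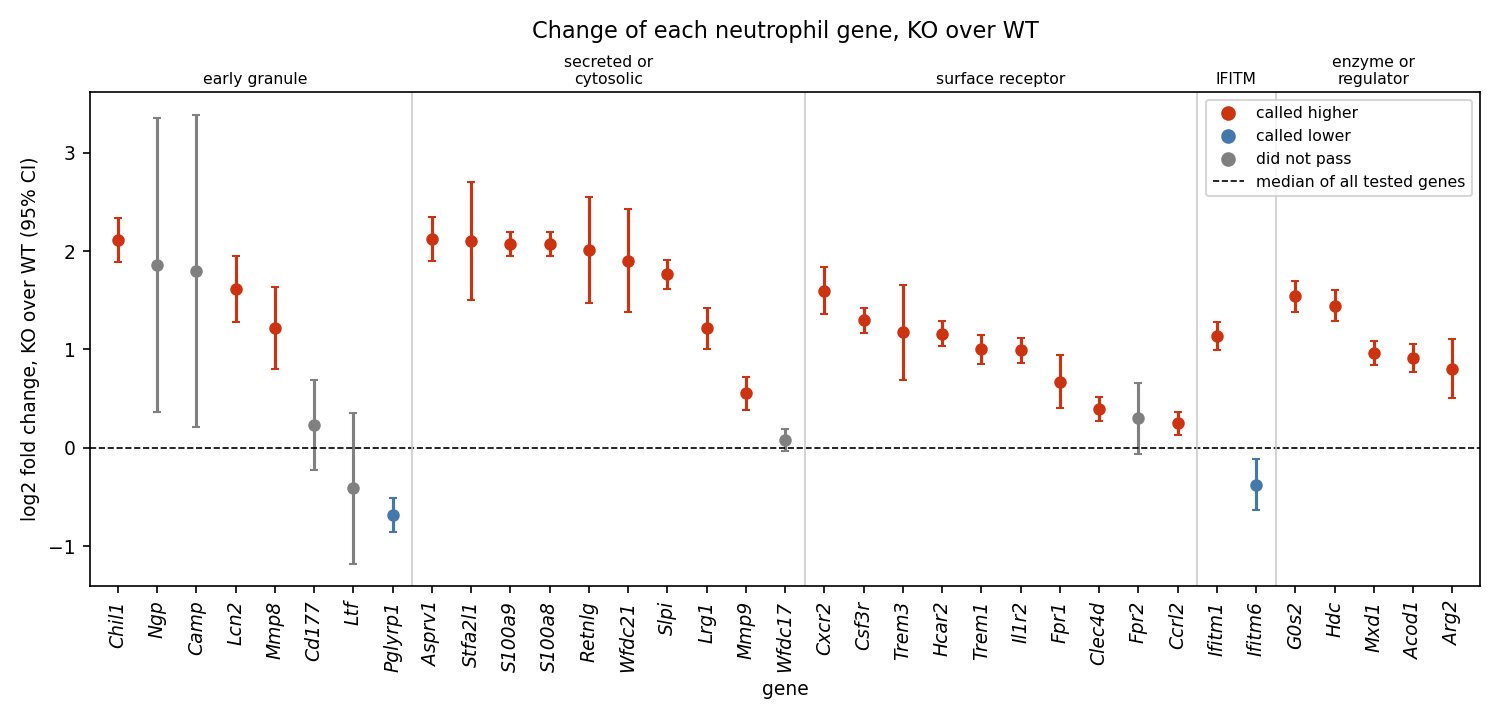
Log2 fold change of each neutrophil gene, KO over WT, with its 95% confidence interval, grouped by role. Red points were called higher, blue lower and grey did not pass, and the dashed line is the median of all tested genes. The mature genes lie above 0 apart from Ifitm6 and, within error, Wfdc17 and Fpr2, and the early granule genes spread from -0.68 for Pglyrp1 to 2.11 for Chil1.

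Surface receptors of mature neutrophils rose over a wide range, 9 of 10 passing and Fpr2 not, with a median of 1.00. Over all tested genes, 10.1% were higher. Cxcr2, the receptor for CXC chemokines that draw neutrophils out of marrow and into tissue, had 436 and 432 counts in WT and 1352 and 1544 in KO (log2 fold change 1.60, SE 0.11). Csf3r, the receptor for granulocyte colony-stimulating factor, had 2347 and 2444 counts in WT and 6300 and 6655 in KO (log2 fold change 1.30, SE 0.059). Both groups were tight and far apart. For Csf3r, 10.7% of 50-base stretches recur in transcripts of other genes. Hcar2, a receptor for ketone bodies and niacin, rose from 136 ± 7.88 to 305 ± 3.57 CPM, and Il1r2, the decoy receptor for interleukin-1, from 184 ± 7.88 to 366 ± 4.27 CPM (SD, n = 2 each).

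The TREM receptors lie side by side on chromosome 17 with a gap of 0.853 kb and rose alike. Trem1, which amplifies inflammatory signalling, rose by 1.00 (SE 0.068), from 66.8 ± 1.72 to 134 ± 2.45 CPM (SD, n = 2 each). Trem3 rose by 1.17 (SE 0.22) from 131 and 237 counts in WT to 455 and 454 in KO, the WT libraries standing apart. The formyl peptide receptors, which sense bacterial and mitochondrial peptides, are also neighbours on that chromosome. Fpr1 rose by 0.67 (SE 0.12), from 518 and 624 counts to 1077 and 920. Fpr2 had 322 and 325 counts in WT and 381 and 496 in KO, did not pass (log2 fold change 0.30, edgeR adjusted p = 0.232) and passed without KO replicate 1 (0.47, edgeR adjusted p = 0.0433). Reads of Fpr2 could be split, as 31.5% of its 50-base stretches recur in related genes.

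Among the 9 receptors that passed, Ccrl2 and Clec4d had the smallest rises and the highest FPKM in WT. Fpr1, with the next smallest rise, was low, at 17.0 FPKM in WT. Clec4d, a C-type lectin receptor for microbial glycolipids, rose by 0.40 (SE 0.057), from 4155 and 4262 counts to 6154 and 6037. Ccrl2, a chemerin-binding atypical chemokine receptor, rose by 0.25 (SE 0.054), from 13190 and 14335 counts to 17356 and 18646, and no longer passed when WT replicate 1 was left out (edgeR adjusted p = 0.0562). Ccrl2 stood at 209 ± 4.87 FPKM in WT and 250.3 ± 9.58 in KO (SD, n = 2 each), which in WT differed from S100a9, at 207 ± 4.54, by less than the spread and in KO lay far below it. Monocytes and macrophages express both genes as well. Among the 9 receptors that rose, adjusted p ran from 1.49e-08 for Csf3r to 0.00545 for Ccrl2 (edgeR quasi-likelihood).

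The IFITM genes encode interferon-induced membrane proteins and moved in opposite directions. Ifitm1 had 1978 and 2256 counts in WT and 4998 and 5215 in KO and rose by 1.13 (SE 0.065, edgeR adjusted p = 1.02e-07). Ifitm6, 45.87 kb away on chromosome 7, had 880 and 1049 counts in WT and 890 and 744 in KO. On the normalised scale both KO libraries of Ifitm6, at 33.5 and 27.6 CPM, were below both WT libraries, at 37.1 and 42.0 CPM. Its fall by 0.37 passed narrowly (SE 0.12, edgeR adjusted p = 0.0435). The call was lost without WT replicate 1 (edgeR adjusted p = 0.0613), WT replicate 2 (0.302) or KO replicate 2 (0.136), with library totals alone (0.104) and with DESeq2 (adjusted p = 0.0568).

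All 5 enzymes and regulators rose, beside 10.1% of all tested genes. G0s2, an inhibitor of lipolysis abundant in neutrophils, had 1083 and 1199 counts in WT and 3689 and 3616 in KO (log2 fold change 1.54, SE 0.072). Hdc, which makes histamine, had 1434 and 1699 counts in WT and 4653 and 4722 in KO (log2 fold change 1.45, SE 0.072). No KO library came near a WT library for these genes. Mxd1, a partner of MAX that opposes MYC, rose from 204 ± 7.85 to 396 ± 2.55 CPM, and Acod1, which makes itaconate, from 184 ± 6.44 to 348 ± 30.3 CPM (SD, n = 2 each). Arg2, the mitochondrial arginase, rose by 0.80 (SE 0.14) from 307 and 364 counts to 667 and 620, but it shares exon bases with Vti1b on the opposite strand and is uncertain. Over these 5, adjusted p ran from 1.60e-08 for G0s2 to 0.00127 for Arg2 (edgeR quasi-likelihood).

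Hdc is also a gene of mast cells and basophils, whose markers were read beside it. Cpa3, a mast cell protease, rose by 1.03, from 58.8 to 120 CPM. Kit had 311 and 376 counts in WT and 517 and 392 in KO and did not pass, Mcpt8 had 7, 10, 4 and 0, and Ms4a2 and Fcer1a were not listed. The part of such cells in the rise of Hdc was not tested.

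The early granule genes did not move as a block. Chil1, a chitinase-like protein, had 377 and 422 counts in WT and 1989 and 1809 in KO and rose by 2.11 (SE 0.10), as far as the calgranulins within error. Lcn2, the iron-scavenging lipocalin, had 188 and 176 counts in WT and 610 and 617 in KO (log2 fold change 1.61, SE 0.15). Mmp8, the neutrophil collagenase, had 164 and 143 counts in WT and 425 and 360 in KO (log2 fold change 1.21, SE 0.19). For each of these 3 genes the groups were apart and their libraries close, with adjusted p-values from 2.73e-08 for Chil1 to 0.000704 for Mmp8 (edgeR quasi-likelihood).

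Pglyrp1, a peptidoglycan-binding antibacterial protein, went the other way. It had 1930 and 1970 counts in WT and 1300 and 1374 in KO, and its fall by 0.68 (SE 0.079, edgeR adjusted p = 5.72e-05) held under all 11 alternatives run. Both KO libraries lay below both WT libraries. Of 8 markers of T cells, the cells sorted for, 5 were lower and 0 higher, with a median log2 fold change of -0.53. Which cells carried the Pglyrp1 transcripts was not tested. Per 1000 counts of S100a8 there were 547 and 498 of Pglyrp1 in WT and 76.3 and 78.7 in KO. Its level of 42.0 ± 0.886 FPKM in WT was the highest of the 8 early granule genes, while 26.3 ± 0.703 FPKM in KO was not apart from Chil1 at 24.5 ± 1.94 (SD, n = 2 each). Cd177, a surface antigen of neutrophils, had 153 and 203 counts in WT and 213 and 247 in KO and did not pass (log2 fold change 0.23, 95% confidence interval -0.22 to 0.69, edgeR adjusted p = 0.489).

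Ngp, Camp and Ltf were set apart by the distance between libraries of the same group. Ngp, neutrophilic granule protein, had 79 and 178 counts in WT and 728 and 292 in KO. Camp, the precursor of the antimicrobial peptide cathelicidin, had 24 and 86 counts in WT and 313 and 103 in KO. For both, WT replicate 2 and KO replicate 1 were the higher library of their group, and KO replicate 2 lay nearer to WT replicate 2 than to KO replicate 1. Ltf, the iron-binding lactoferrin, had 479 and 626 counts in WT and 620 and 291 in KO, so the groups overlapped and KO replicate 2 was the lowest of all.

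On the CPM scale KO replicate 1 exceeded KO replicate 2 by 2.53 times for Ngp, 2.16 times for Ltf and 3.08 times for Camp, with 95% intervals of 2.21 to 2.91, 1.88 to 2.49 and 2.46 to 3.89. These intervals compare the libraries and cover counting error only. WT replicate 2 exceeded WT replicate 1 by 2.14 times for Ngp and 3.40 times for Camp. The other 32 genes had KO ratios between 0.768 and 1.34, and their WT ratios lay between 0.815 and 1.26 except for Trem3 at 1.72. Of 12016 listed genes that averaged 1 CPM or more without a 0 count, 2.53% had KO libraries over 2-fold apart and 0.308% had both groups over 2-fold apart.

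In edgeR with all 4 libraries none of the 3 passed, while limma-voom called Ngp higher (1.80, limma adjusted p = 0.0233). The log2 fold changes were 1.86 for Ngp (SE 0.58, edgeR adjusted p = 0.0917), 1.80 for Camp (SE 0.67, edgeR adjusted p = 0.112) and -0.41 for Ltf (SE 0.32, edgeR adjusted p = 0.443). These values moved with single libraries. Without WT replicate 1, Ngp was at 1.42 and Camp at 1.17, and without WT replicate 2 at 2.52 and 2.94, and neither passed (edgeR adjusted p = 0.568 and 0.465, then 0.401 and 0.0978). Without KO replicate 1, Ngp was at 1.04 and Ltf at -1.07, and both passed (edgeR adjusted p = 0.000324 and 3.74e-08), while Camp was at 0.77 and did not. Without KO replicate 2, Ngp was at 2.38 and Camp at 2.39 and both passed (edgeR adjusted p = 3.40e-31 and 4.83e-15), while Ltf stood at 0.041. These calls rest on a lone KO library, which is assumed to vary like the WT group. The 3 genes lie on chromosome 9, Camp 570.1 kb before Ngp and Ngp 596.3 kb before Ltf, with other genes between them.

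**Figure D3:**
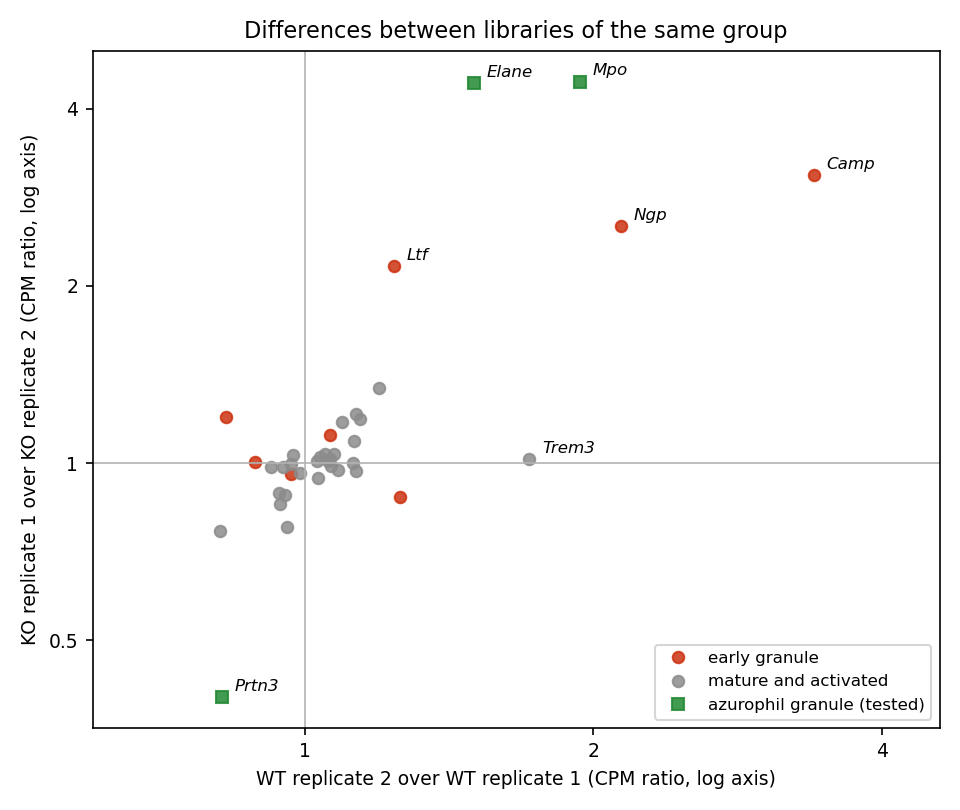
Ratio of CPM between the libraries of a group, WT replicate 2 over WT replicate 1 on the horizontal and KO replicate 1 over KO replicate 2 on the vertical axis (both log axes). Each point is a gene, red for early granule, grey for mature and activated and green for the 3 tested azurophil granule genes. Most lie near 1 on both axes, whereas Ngp, Camp, Ltf, Mpo and Elane lie up and to the right and Prtn3 down and to the left.

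Azurophil granule genes, transcribed in still earlier precursors and no part of the 36, had few counts. In Mpo, Elane and Ctsg, as in Ngp, Camp and Ltf, replicate 2 was the higher WT library and replicate 1 the higher KO library, but the groups overlapped for Mpo, Elane and Ctsg. Myeloperoxidase (Mpo) had 23 and 47 counts in WT and 114 and 26 in KO, neutrophil elastase (Elane) 12, 19, 74 and 17, and cathepsin G (Ctsg) 3, 6, 16 and 4. Prtn3 ran the opposite way, with 66, 57, 30 and 76, and Ms4a3 had 1, 1, 8 and 12. None of the 3 that could be tested passed (0 with edgeR, DESeq2 and limma-voom, and 0 at an unadjusted p under 0.05). Haemoglobin transcripts were also higher in KO replicate 1 than in KO replicate 2, Hba-a1 with 286 and 386 counts in WT and 1025 and 677 in KO. All 4 haemoglobin genes tested were higher in KO (3 with limma-voom), beside 10.1% of all tested genes. Their summed levels ran from 27.1 to 33.6 CPM in WT and from 53.0 to 84.3 in KO. The part of immature or blood-derived cells in the spread of Ngp, Camp and Ltf was not tested.

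Ordered by fold change, most neighbouring genes could not be told apart. The 95% confidence intervals of 33 of 34 neighbouring pairs overlapped. The intervals of 10 genes, S100a9 included, overlapped that of S100a9 (1.95 to 2.19), and those of 19 genes called higher lay wholly below it. Among these 19 were all 9 receptors and all 5 enzymes and regulators that rose, with Slpi the nearest at 1.61 to 1.91. The counts of Csf3r per 1000 of S100a8 were 666 and 618 in WT and 370 and 381 in KO. Those of Retnlg were 16.4 and 18.5 in WT and 19.4 and 14.3 in KO, so the groups overlapped.

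Further genes that neutrophils use, chosen apart from the 36, moved less and both ways. Of 24 tested, 10 (41.7%) were higher and 5 lower, beside 10.1% of all tested genes higher and 11.0% lower. The other 9 did not pass, and the median was 0.04 on the log2 scale. The inflammatory genes Il1b (log2 fold change 0.79), Clec4e (0.76), Osm (0.61) and Il1rn (0.35) were higher, with adjusted p-values from 5.66e-07 for Il1b to 0.000449 for Il1rn (edgeR). The oxidase subunit gene Cybb fell by 0.26 and the chitinase-like gene Chil3 by 0.44 (edgeR adjusted p = 0.00574 and 0.00341), both named after their values were seen. Library totals alone as the scaling gave 11 higher and 3 lower. Lyz2, shared with macrophages, held most of the summed level of this list. Ly6g, the surface antigen by which mouse neutrophils are usually gated, had 10 and 10 counts in WT and 9 and 19 in KO, too few to read a direction.

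Markers of monocytes and macrophages, which share several of the 36 genes, had a higher summed level, and most changed little. Of 12, 2 were higher (Apoe by 0.46 and Ms4a7 by 0.27), 2 lower (among them Ccr2 at -0.39) and 8 did not pass, with a median of -0.09. Over all tested genes, 10.1% were higher and 11.0% lower. DESeq2 called 3 of the 12 and limma-voom 4 lower, while scaling to library totals alone gave 4 higher and 1 lower. The summed level of the 12 markers ran from 8214 to 8417 CPM in WT and from 8811 to 9006 in KO. Apoe alone took 2321 and 2453 CPM of it in WT and 3345 and 3207 in KO. Of the 12 fitted changes, 5 were above 0. Sums over lists of unlike size, without scaling for gene length, do not rank cell types by abundance. The mature and activated neutrophil genes summed to 2989 and 3059 CPM in WT and 5622 and 5701 in KO, and the early granule genes to 143 and 152 CPM in WT and 233 and 189 in KO. T cell markers, the cells sorted for, were lower, 5 of 8 passing and 0 rising. DESeq2 and limma-voom also called 0 higher, and 0 rose at an unadjusted p under 0.05. Cd8a fell by 0.93 and Cd8b1 by 0.96, while Cd3d, Cd2 and Cd5 did not pass. The summed levels of the 8 were 2837 and 2898 CPM in WT and 1956 and 1939 in KO. E.G7 is itself a T lymphoma line, and the part of tumour cells in these levels was not tested. Mitochondrial transcripts took 10.2% to 10.4% of counts in WT and 6.57% to 6.99% in KO. The part of these shifts in the rise of the neutrophil genes was not tested.

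**Figure D4:**
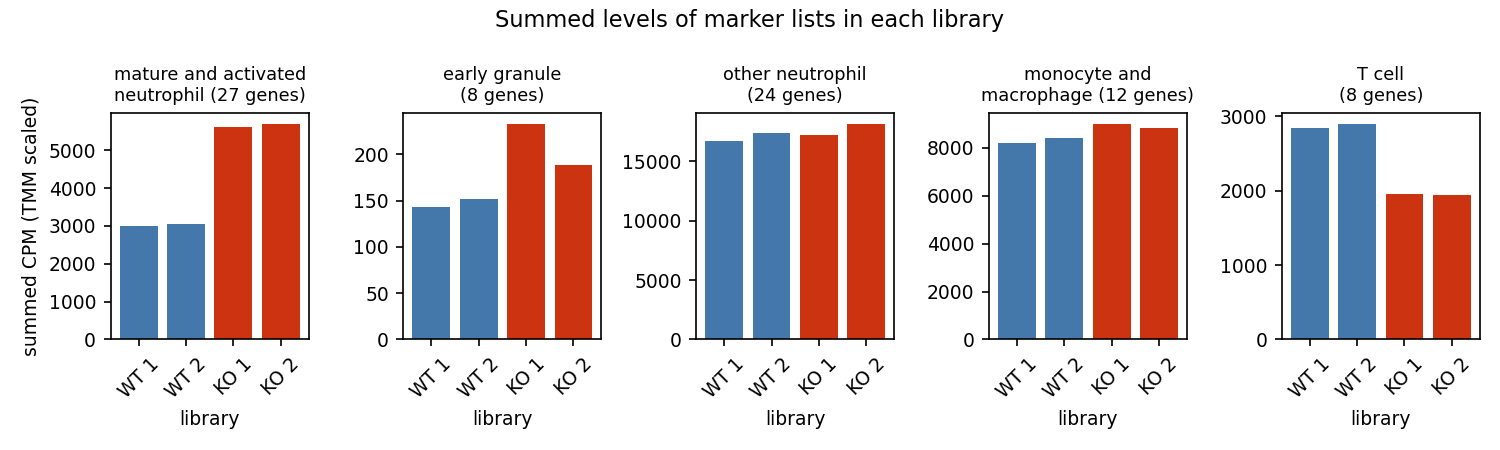
Summed CPM (TMM scaled) of 5 gene lists in each library, with blue bars for libraries labelled WT and red bars for those labelled KO. Each panel has its own vertical axis, which starts at 0. The mature and activated neutrophil list stands at 5622 and 5701 CPM in KO against 2989 and 3059 in WT, while the T cell list is lower in KO.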

How the data were processed

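RNA of sorted, ovalbumin-specific CD8 T cells was sequenced in 4 libraries, 2 per group. Per the submitters' processing notes, the tools were DESeq2, edgeR, featureCounts, Bowtie2 and Trim Galore 0.4.4 and the build was mm10, with no role or order; annotation, strand setting and read length were not given in the sources used here. Values used in tests are whole read counts per gene as the authors deposited them, per the file headers. The authors' FPKM, per the file headers, served to compare levels between genes. Listed genes had at least 20 counts in all.

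The test was quasi-likelihood in edgeR 4.0.16 (R 4.3.3), robust, with TMM factors and filterByExpr (minimum count 10, minimum total 15), which left 13358 genes and removed 724. Benjamini-Hochberg adjustment ran over all of them, with a threshold of 0.05. SE and 95% confidence intervals were derived from each F statistic. On simulated counts for this comparison (13175 genes tested), 46.9% of genes changed 1.5-fold and 98.0% of those changed 4-fold were recovered, and 6.10% of calls were false. Replicates differed by more than counting noise (chi-square per gene 7.50 in WT and 9.83 in KO), so none was merged. Positions, exon overlaps and shared 50-base stretches are from GENCODE M21 (GRCm38, as mm10), and promoters from RefSeq GRCm38.p6.

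The genes and lists were chosen with earlier results of these data known. Every tested gene of the set is named, and other lists by up to 4 genes of lowest p or by their defining markers; some of these genes are not reported here. Alternatives were RLE size factors, library totals alone, no filter, a filter of 1 CPM in 2 libraries, the replicate number as a block, DESeq2 1.42.0, limma-voom (limma 3.58.1) and leaving out each library.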

Additional observations from a re-analysis of the deposited data

How the results depend on the processing

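Of the 35 genes tested, 28 kept direction and side of the threshold under all 11 alternatives, the exceptions being Ngp, Ltf, Camp, Wfdc17, Fpr2, Ccrl2 and Ifitm6. The number higher was 27 and lay between 26 and 29 under every alternative. The number lower was 2, and 1 with library totals alone and with DESeq2, both from the loss of Ifitm6 (0 mature genes lower in each, 1 at an unadjusted p under 0.05 in each). Leaving out a library gave 1 to 3 lower, 3 to 5 early granule genes higher against 3, 1 to 2 lower against 1, and 0 to 1 mature genes lower against 1. The early granule median of 1.41 ran from 0.91 to 1.48 when a library was left out, the lowest without KO replicate 1. Over the narrower early list it was 1.61. The mature median of 1.16 became 1.00 without genes that keratinocytes also express. Ltf ran from -1.07 without KO replicate 1 to 0.041 without KO replicate 2, a reversal. Over all tested genes, leaving out a library gave 714 to 1605 higher and 831 to 1787 lower, the fewest without WT replicate 1, and 837 and 922 without WT replicate 2. Library totals alone gave 2105 higher, a median shift of 0.09 on the log2 scale. The cause of these changes was not tested. Replicate numbers are shared by the groups, but differences between replicates 1 and 2 did not run together across groups (r = -0.04 over 13358 genes). A pairing is not given in the labels, and this value cannot show that there is none. With the replicate block, 5 early granule genes were higher and 2 lower, as Ngp, Camp (higher) and Ltf (lower) passed (edgeR adjusted p = 6.14e-16, 3.13e-06 and 0.0104), in a fit with 1 residual degree of freedom and for genes whose libraries differ widely, so these p-values are not firm. Depth limits Camp, Retnlg, Wfdc21, Stfa2l1 and the azurophil genes most.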

Other observations

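Markers of further cell types that a tumour sort can carry were read in the same fit, as values with no explanation. The B cell marker Cd79a had 21 and 12 counts under the label WT and 112 and 106 under the label KO, and was higher (edgeR adjusted p = 0.000984). Siglech, a plasmacytoid dendritic cell receptor, had 1590 and 1623 counts in WT and 4466 and 4698 in KO. Of 6 dendritic cell markers, 2 were higher (Siglech and Flt3, by 1.37 and 0.59 on the log2 scale) and 1 was lower (Cd209a, at -0.33). Their edgeR adjusted p-values were 2.04e-08, 0.00161 and 0.0193. The other 3, Xcr1, Clec9a and Zbtb46, did not pass. Over all tested genes, 10.1% were higher and 11.0% lower.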
